A study of Mus musculus with 12 samples.

Results

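Immediate early transcription factors are DNA-binding proteins whose genes a cell switches on soon after a stimulus, before any new protein has to be made. Fos and Jun family proteins pair through leucine zippers to form AP-1, Egr proteins bind GC-rich sites through zinc fingers, Atf3 is a stress-induced leucine zipper factor, and Myc pairs with Max at E-boxes to drive growth genes. In the heart, transient induction of these genes is among the earliest known transcriptional responses to a sudden rise in pressure load. The 10 genes described here are Fos, Fosb, Fosl1, Fosl2, Jun, Junb, Egr1, Egr2, Atf3 and Myc, taken by gene symbol from the 27179 genes of the deposited tables, where each had 1 entry.

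The RNA came from heart tissue of C57Bl/6J mice, 12 weeks old, in 4 groups. The fat-free diet held 0 kcal% and the high-fat diet 60 kcal% fat, and each was given for the 4 days that preceded surgery and afterwards. Surgery was transverse aortic constriction (TAC), which narrows the aortic arch so that the left ventricle pumps against a higher pressure, or a sham operation. Hearts were collected 1 week later, so all values describe that time and not the first hours after surgery. The labels give neither sex nor the part of the heart, and they name no engineered allele. Each group has 3 labelled libraries. Replicate 1 of high-fat sham is not analysed here. This leaves 3 fat-free sham, 3 fat-free TAC, 2 high-fat sham and 3 high-fat TAC libraries. Whether each library is a separate animal is not stated, so the p-values measure only the spread between libraries.

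Values are read counts per gene that the authors normalized within each diet, with 25906622 to 39699027 normalized counts in a library. Cardiomyocyte markers (Myh6, Tnnt2, Actc1, Ryr2, Pln) were present in every library, at a summed level of 793976 to 1522074. Myl7, the atrial myosin light chain, was uneven within groups. In order of replicate number, from here on, it had 9915, 274 and 8426 normalized counts in fat-free sham and 1758, 23 and 75 in fat-free TAC. The high-fat sham libraries (replicates 2 and 3) had 4 and 6, and those of high-fat TAC had 14839, 10 and 6. All 5 macrophage markers and all 5 cycling cell markers were higher after TAC on both diets by the test used below. In such whole-tissue RNA, fewer cells of a type and less RNA per cell cannot be told apart.

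At 1 week after TAC, Egr2 was the member that rose on both diets. It was about 4 times its sham level on the fat-free diet and 6 times on the high-fat diet. Egr1 and Jun fell on the fat-free diet. Junb, Fosl2 and Myc rose on the high-fat diet. Fos, the founding member, did not pass the test on either diet, and its estimates pointed in opposite directions. No member's response differed between the diets beyond the spread of the libraries after adjustment.

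The stretches of DNA before 4 of these genes are shown first, because Egr2, Junb and Fosl2 rose and Fos is the reference member of the family. Each is the 250 bases before the RefSeq transcription start, on build GRCm38.p6, read 5′ to 3′ on the gene's own strand. Capitals mark matches on either strand to the motifs listed after the sequences. The Egr2 stretch is chr10:67537619-67537868 (plus strand), the Fos stretch is chr12:85473640-85473889 (plus strand), the Junb stretch is chr8:84978749-84978998 (minus strand) and the Fosl2 stretch is chr5:32136222-32136471 (plus strand).
Egr2: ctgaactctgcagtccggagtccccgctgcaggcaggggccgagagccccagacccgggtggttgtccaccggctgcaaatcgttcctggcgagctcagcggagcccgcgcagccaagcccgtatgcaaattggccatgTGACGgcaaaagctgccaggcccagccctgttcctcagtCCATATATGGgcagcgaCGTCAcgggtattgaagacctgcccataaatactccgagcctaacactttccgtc
Fos: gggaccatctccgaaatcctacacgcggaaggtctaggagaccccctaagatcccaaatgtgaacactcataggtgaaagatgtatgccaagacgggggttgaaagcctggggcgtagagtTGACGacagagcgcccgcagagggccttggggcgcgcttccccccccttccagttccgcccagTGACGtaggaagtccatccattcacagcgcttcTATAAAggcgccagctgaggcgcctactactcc
Junb: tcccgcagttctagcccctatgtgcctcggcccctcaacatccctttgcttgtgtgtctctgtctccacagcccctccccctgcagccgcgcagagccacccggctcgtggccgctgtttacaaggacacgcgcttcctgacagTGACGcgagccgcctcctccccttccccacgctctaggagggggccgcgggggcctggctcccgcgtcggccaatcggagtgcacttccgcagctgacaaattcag
Fosl2: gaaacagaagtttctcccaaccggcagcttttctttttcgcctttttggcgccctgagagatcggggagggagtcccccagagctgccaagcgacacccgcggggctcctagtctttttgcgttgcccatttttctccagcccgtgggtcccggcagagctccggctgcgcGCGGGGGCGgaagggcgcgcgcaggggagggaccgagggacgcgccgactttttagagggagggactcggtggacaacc

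The Egr2 stretch holds a CArG box, the element known to bind serum response factor, from 72 to 63 bases before the start. The same stretch holds the core of the cAMP response element, TGACG, on the plus strand from 111 to 107 bases before the start and on the minus strand from 55 to 51. The Fos stretch holds TGACG from 129 to 125 and from 66 to 62 bases before its start and a TATA box, TATAAA, from 33 to 28. The Junb stretch holds 1 TGACG, from 106 to 102 bases before the start. The Fosl2 stretch holds 1 Egr site, GCGNGGGCG, from 79 to 71 bases before the start.

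Of the 10 members, 7 matched the promoter table, with 1 stretch taken for each, namely the one nearest to the gene start in the deposited table. Among these, Egr2 held a CArG box, against 1.47% of the 32851 stretches of the same length in the table. TGACG stood before 5 of the 7 (Fos, Fosb, Junb, Egr2 and Atf3), against 17.8% of all stretches. TATAAA stood before Fos alone, against 12.4%, and an Egr site stood before Fosb and Fosl2, against 4.7%. The full cAMP response element TGACGTCA, which contains TGACG, was in 0 of the 7 and in 1.55% of all stretches. The AP-1 site TGANTCA was in 0 of the 7 and in 6.75%, and the E-box CACGTG was in 0 of the 7 and in 6.02%. These matches describe the letters of the windows and were not measured as binding. Sites further than 250 bases before the start were not searched, so a motif missing here may lie outside the window. Fosl1, Egr1 and Myc had no entry in the table.

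**Figure D1:**
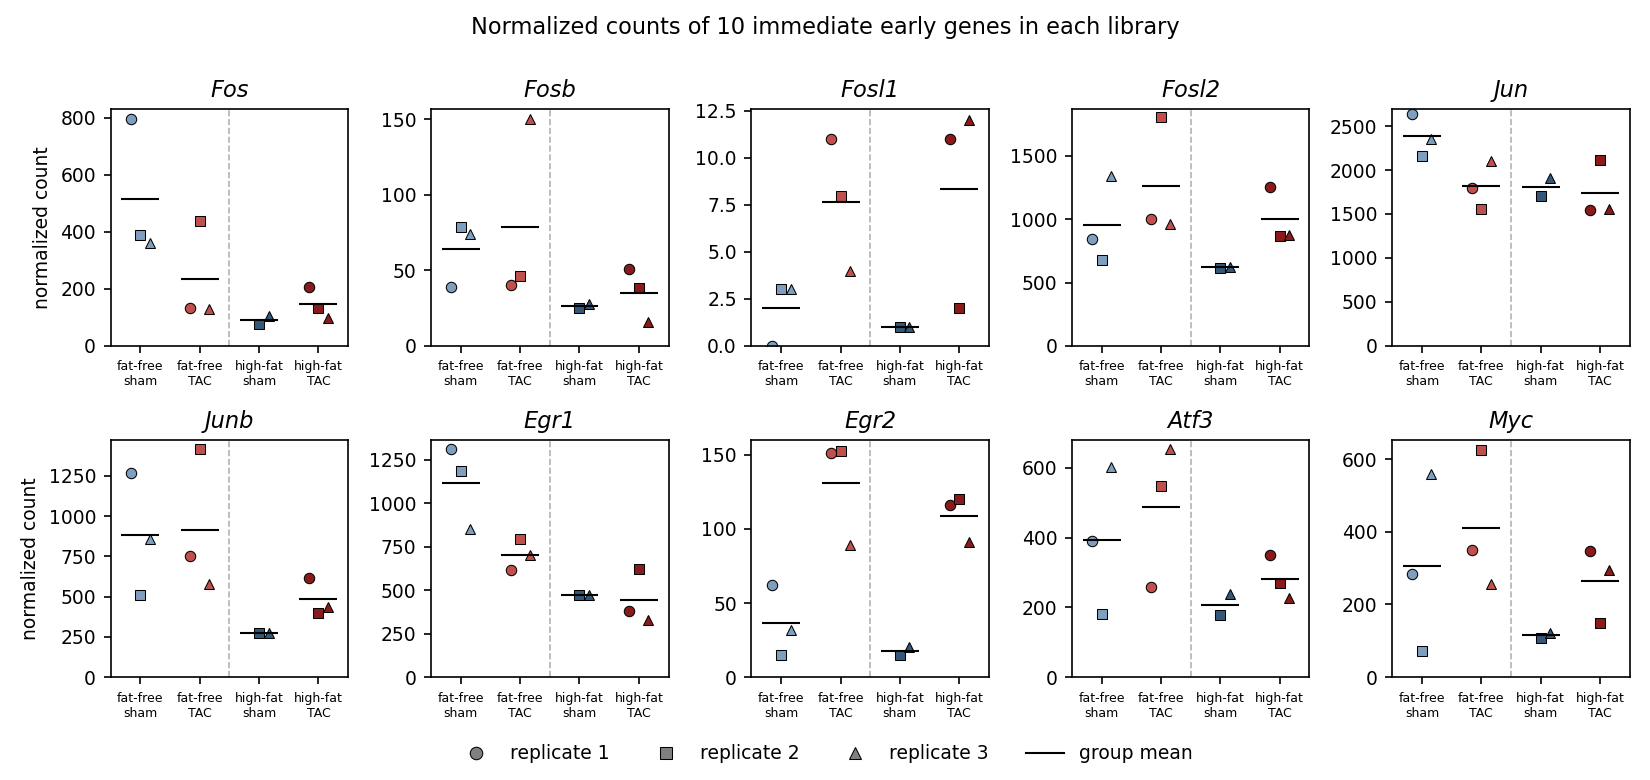
Normalized counts (vertical axis, each panel from 0) of the 10 immediate early genes in every library of the 4 groups (horizontal axis), with points as libraries, symbols as replicate numbers and black lines as group means. The dashed line separates the tables of the 2 diets, which were normalized separately. In the Egr2 panel all TAC libraries sit above the sham libraries of their diet, and in the Myc panel fat-free sham runs from 73 to 560.

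Of the Egr family members, Egr2 rose on both diets and Egr1 fell on the fat-free diet. Egr2, a zinc finger factor known for its roles in myelination and in lymphocytes, had 62, 15 and 32 normalized counts in fat-free sham. In fat-free TAC it had 151, 153 and 89. The groups did not overlap, and the lowest TAC library was above the highest sham library. The log2 fold change (TAC over sham) was 1.99 ± 0.48 (SE, n = 3 and 3; 95% interval 0.90 to 3.09), with a limma adjusted p of 0.0304 over all genes tested, under the threshold of 0.1 used throughout. Without fat-free TAC replicate 2 the adjusted p was 0.114, with a log2 fold change of 1.86. Without the 3 fat-free libraries above 1000 Myl7 counts, which leaves 1 sham library, the log2 fold change was 2.88 and the adjusted p 0.300.

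High-fat mice gave a like picture for Egr2, which had 15 and 20 normalized counts in the sham libraries and 116, 120 and 91 in the TAC libraries. The groups were again apart, by more than 4 times between the nearest libraries. The log2 fold change was 2.57 ± 0.26 (SE, n = 3 and 2; 95% interval 1.94 to 3.21), with a limma adjusted p of 0.0188. It was 2.38, with an adjusted p of 0.203, without high-fat sham replicate 2, which leaves 1 sham library. Its adjusted p was under 0.1 without each of the other 4 libraries in turn.

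Egr1, the best studied member of the family and a rapid responder to growth factors and stretch, went the other way on the fat-free diet. It had 1314, 1189 and 850 normalized counts in fat-free sham and 618, 794 and 704 in fat-free TAC. Every TAC library was below every sham library. Egr1 fell by 0.65 on the log2 scale (SE 0.17, n = 3 and 3; 95% interval -1.05 to -0.25, limma adjusted p = 0.0433). The call was lost without fat-free sham replicate 1 (-0.52, adjusted p = 0.132), sham replicate 2 (-0.59, adjusted p = 0.111) or TAC replicate 1 (-0.56, adjusted p = 0.121). With log2 Myl7 as a covariate it held (-0.83, adjusted p = 0.0455). Without the 3 fat-free libraries above 1000 Myl7 counts, which leaves 1 sham library, the log2 fold change of Egr1 was -0.67. In high-fat hearts Egr1 had 475 and 473 in sham and 382, 623 and 331 in TAC. There the sham values lay inside the TAC range and the log2 fold change was -0.14 ± 0.27 (limma adjusted p = 0.717). Without high-fat TAC replicate 2 it was -0.41, with an adjusted p of 0.0779. The sign was not stable: it was 0.04 without TAC replicate 3, 0.27 with libraries scaled by their totals alone and 0.11 in the authors' deposited table.

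Because Egr2 and Egr1 bind alike sites, their relative abundance was also computed per kilobase of transcript within each library. In fat-free sham, Egr2 was 4.89%, 1.31% and 3.9% of the Egr1 level, and in fat-free TAC it was 25.3%, 20% and 13.1%. In high-fat sham it was 3.27% and 4.38%, and in high-fat TAC 31.5%, 20% and 28.5%. Egr1 remained the more abundant transcript in every library, while Egr2 took a larger share after TAC on both diets. The difference was 16.1 percentage points on the fat-free diet (exact permutation test, two-sided p = 0.1) and 22.8 on the high-fat diet (exact permutation test, two-sided p = 0.2). These are the smallest p-values that 3 against 3 and 3 against 2 libraries allow. The measure was added after the counts of both genes were seen. The separation of the groups follows from those counts, so these p-values are a description and no separate support.

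The remaining Egr family genes and corepressors formed a short list of 5, of which 4 could be tested. Egr3, a close relative of Egr2, had 13, 11 and 10 normalized counts in fat-free sham and 24, 34 and 29 in fat-free TAC. It had 7 and 6 in high-fat sham and 17, 31 and 21 in high-fat TAC. It rose on both diets, by 1.28 ± 0.32 (limma adjusted p = 0.0338) and 1.64 ± 0.41 (limma adjusted p = 0.0575) on the log2 scale. On the high-fat diet Egr3 entered the test only through its TAC libraries. Egr4 stood at 0 to 2 counts in all libraries and was not tested. Nab2, a corepressor that Egr proteins induce and that binds them, had 136 and 145 counts in high-fat sham and 309, 254 and 226 in high-fat TAC, a rise of 0.89 ± 0.18 (limma adjusted p = 0.0430). Nab2 did not pass the test on the fat-free diet, with 261, 251 and 196 counts in sham and 206, 264 and 219 in TAC. Nab1, the second corepressor, rose on the high-fat diet by 0.36 ± 0.12 (limma adjusted p = 0.0814), from 1056 and 1062 to 1466, 1215 and 1424. In fat-free hearts it had 935, 942 and 972 in sham and 1061, 1044 and 883 in TAC. Wt1, a zinc finger factor of the epicardium that is related to the Egr proteins, rose on the fat-free diet by 0.74 ± 0.22 (limma adjusted p = 0.0582), a call that held in 3 of 6 settings with 1 library left out. With 1 high-fat library left out, Egr3, Nab2 and Nab1 were each called in 2 of 5 settings, and leaving out either sham library leaves 1. Over this list 2 of 4 rose and 0 fell on the fat-free diet, and 3 of 4 rose and 0 fell on the high-fat diet. Of all genes tested, 14.2% rose and 10.0% fell on the fat-free diet, and 16.9% rose and 14.8% fell on the high-fat diet.

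Fos, the first member of the family to be known, did not pass the test on either diet. Fos had 794, 389 and 360 normalized counts in fat-free sham and 132, 439 and 129 in fat-free TAC. TAC replicate 2 lay above 2 of the sham libraries, so the groups overlapped. The log2 fold change was -1.29 ± 0.49 (SE, n = 3 and 3; 95% interval -2.43 to -0.16, limma adjusted p = 0.115). Without fat-free TAC replicate 2 it was -1.87, with an adjusted p of 0.0369, and in a fit over all 11 libraries the adjusted p was 0.0991. It was closer to 0 without sham replicate 1 (-0.93, adjusted p = 0.293), TAC replicate 1 (-1.01, adjusted p = 0.278) or TAC replicate 3 (-0.99, adjusted p = 0.232). Without the 3 fat-free libraries above 1000 Myl7 counts it was -0.71, with an adjusted p of 0.680. High-fat hearts had 77 and 106 Fos counts in sham and 205, 132 and 99 in TAC, and the groups overlapped. The log2 fold change there was 0.62 ± 0.34 (95% interval -0.23 to 1.46, limma adjusted p = 0.229). Without TAC replicate 1, the library with 14839 Myl7 counts, it was 0.34 with an adjusted p of 0.349, and without high-fat sham replicate 2 it was 0.39.

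The difference between the TAC effects on Fos, high-fat minus fat-free, was 1.91 ± 0.72 on the log2 scale (95% interval 0.31 to 3.50). Its unadjusted limma p was 0.0236 and its adjusted p 0.784. It was the only member with an unadjusted p under 0.05 for the difference, where 679 of the 14729 genes tested had one. Leaving out any 1 library gave 1.55 to 2.49, and leaving out the 4 libraries above 1000 Myl7 counts gave 1.04 with an adjusted p of 0.911. The share of all genes called different between the diets was 0%.

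Fosl2 (Fra-2), a Fos relative that lacks the strong activation domain of Fos and persists longer after a stimulus, had 843, 674 and 1339 normalized counts in fat-free sham. It had 1001, 1809 and 964 in fat-free TAC. The groups overlapped and the log2 fold change was 0.40 ± 0.30 (95% interval -0.30 to 1.09, limma adjusted p = 0.400). Its size rested on single libraries, with 0.11 without TAC replicate 2, 0.18 without sham replicate 2 and 0.68 without sham replicate 3, and it was 0.97 without the 3 libraries above 1000 Myl7 counts, none of them called. In high-fat hearts it had 612 and 626 in sham and 1252, 867 and 875 in TAC, so every TAC library was higher. It rose by 0.67 ± 0.18 (95% interval 0.21 to 1.12, limma adjusted p = 0.0665). The call was lost with no filter on low values (adjusted p = 0.102) and in a fit over all libraries (0.132). It held in the other settings that kept every library. The adjusted p was 0.349 without high-fat sham replicate 2, 0.265 without sham replicate 3 and 0.147 without TAC replicate 3, at log2 fold changes of 0.65, 0.68 and 0.75.

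Fosb, known in neurons for its long-lived truncated form, had 39, 79 and 74 normalized counts in fat-free sham and 40, 46 and 150 in fat-free TAC. It had 25 and 28 in high-fat sham and 51, 38 and 16 in high-fat TAC. On the fat-free diet TAC replicates 1 and 2 lay within the sham range and replicate 3 above it. On the high-fat diet TAC replicates 1 and 2 lay above both sham libraries and replicate 3 below both. The log2 fold changes were 0.09 ± 0.51 (limma adjusted p = 0.921) and 0.25 ± 0.52 (limma adjusted p = 0.744). Their direction depended on single libraries: they were -0.50 without fat-free TAC replicate 3, -0.23 without fat-free sham replicate 1 and -0.09 without high-fat TAC replicate 1.

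Fosl1 (Fra-1), the other Fos relative without a strong activation domain, was near the lower limit of detection. It had 0, 3 and 3 normalized counts in fat-free sham and 11, 8 and 4 in fat-free TAC. Too few of these reached 10 for a test. It had 1 and 1 in high-fat sham and 11, 2 and 12 in high-fat TAC. It entered the high-fat test only through its TAC libraries, and its log2 fold change of 1.96 ± 0.84 (limma adjusted p = 0.143) rests on few reads. Without high-fat TAC replicate 2 the adjusted p was 0.0414.

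The makeup of the Fos family was compared per kilobase of transcript, as shares of the 4 genes together. This measure was added after the values were seen, so its p-values are a description. In fat-free sham, Fos took 71.1%, 57.5% and 40.8% of the family's level and Fosl2 took 26.9%, 35.5% and 54.1%. In fat-free TAC, Fos took 25.1%, 39.2% and 23.0% and Fosl2 took 68.1%, 57.6% and 61.3%. On the fat-free diet Fosl2 therefore had the larger part in all TAC libraries and in 1 of the 3 sham libraries. In high-fat sham, Fos took 24.8% and 30.6% and Fosl2 took 70.3% and 64.5%. In high-fat TAC, Fos took 29.6%, 28.4% and 22.8% and Fosl2 took 64.4%, 66.6% and 71.8%. Fosl2 led in every high-fat library. The share of Fos was different by -27.4 percentage points (TAC minus sham) for fat-free mice (exact permutation test, two-sided p = 0.1, the smallest it allows) and by -0.767 for high-fat mice (exact permutation test, two-sided p = 0.8, with 0.2 the smallest it allows).

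The Jun family supplies the partners of Fos proteins. Jun, its founding member, had 2638, 2158 and 2351 normalized counts in fat-free sham and 1797, 1560 and 2102 in fat-free TAC. No TAC library reached the lowest sham library. Jun fell by 0.39 on the log2 scale (SE 0.13, n = 3 and 3; 95% interval -0.69 to -0.10, limma adjusted p = 0.0765). The call was lost without fat-free sham replicate 1 (-0.32, adjusted p = 0.216), sham replicate 3 (-0.40, adjusted p = 0.149), TAC replicate 1 (-0.39, adjusted p = 0.164) or TAC replicate 2 (-0.29, adjusted p = 0.222). It was also lost when the libraries were scaled by their totals alone (-0.25, adjusted p = 0.228). That scaling moved the median log2 fold change of all genes from -0.02 to 0.13. With log2 Myl7 as a covariate the call was lost too (-0.28, adjusted p = 0.268). Without the 3 fat-free libraries above 1000 Myl7 counts, which leaves 1 sham library, the log2 fold change of Jun was -0.25. For high-fat mice, Jun had 1705 and 1904 in sham and 1545, 2114 and 1562 in TAC. These groups overlapped, and the log2 fold change was -0.07 ± 0.17 (limma adjusted p = 0.786).

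Junb, a Jun relative that is a weaker activator and can restrain Jun, had 1270, 510 and 859 normalized counts in fat-free sham and 752, 1414 and 581 in fat-free TAC. The ranges were nearly the same, with a log2 fold change of 0.05 ± 0.39 (95% interval -0.84 to 0.94, limma adjusted p = 0.945). High-fat hearts had 276 and 271 in sham and 618, 395 and 434 in TAC. All TAC libraries were higher there, and Junb rose by 0.79 ± 0.21 (95% interval 0.27 to 1.31, limma adjusted p = 0.0628). The adjusted p was 0.345 without high-fat sham replicate 2, 0.264 without sham replicate 3, 0.150 without TAC replicate 3 and 0.156 in a fit over all 11 libraries. Jund, the third Jun protein gene and the one least tied to stimulation, did not pass the test, with 3282 to 3854 counts in fat-free sham, 3234 to 4188 in fat-free TAC, 2281 to 2345 in high-fat sham and 2276 to 3174 in high-fat TAC.

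Atf3, a stress-induced factor that often acts as a repressor, had 391, 182 and 602 normalized counts in fat-free sham and 259, 548 and 655 in fat-free TAC. It had 177 and 238 in high-fat sham and 349, 269 and 226 in high-fat TAC. The groups overlapped on both diets. The log2 fold changes were 0.37 ± 0.47 (95% interval -0.70 to 1.45, limma adjusted p = 0.622) and 0.43 ± 0.24 (95% interval -0.15 to 1.01, limma adjusted p = 0.224).

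Myc had 285, 73 and 560 normalized counts in fat-free sham and 351, 624 and 256 in fat-free TAC. The sham libraries alone differed by more than 7 times, and the TAC libraries ran from inside to just above their range. The log2 fold change was 0.75 ± 0.67 (95% interval -0.79 to 2.29, limma adjusted p = 0.478), and -0.06 without fat-free sham replicate 2. With the high-fat diet, Myc had 108 and 122 in sham and 348, 148 and 296 in TAC. Every TAC library was higher, and Myc rose by 1.10 ± 0.38 (95% interval 0.18 to 2.03, limma adjusted p = 0.0925). The adjusted p was 0.382 without high-fat sham replicate 2, 0.283 without sham replicate 3 and 0.212 without TAC replicate 3. It was 0.101 when TAC replicate 1 was left out, the library with 14839 Myl7 counts. The call was also lost with no filter on low values (adjusted p = 0.135) and with value-wise weights (0.142). A fit over all 11 libraries (0.250) and log2 Myl7 as a covariate (0.134) lost it too. It held with the other pseudocounts, under scaling by library totals alone (0.0513) and with a replicate block (0.0322). In the authors' deposited table, which is from DESeq2, the adjusted p of Myc on the high-fat diet was 0.371.

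**Figure D2:**
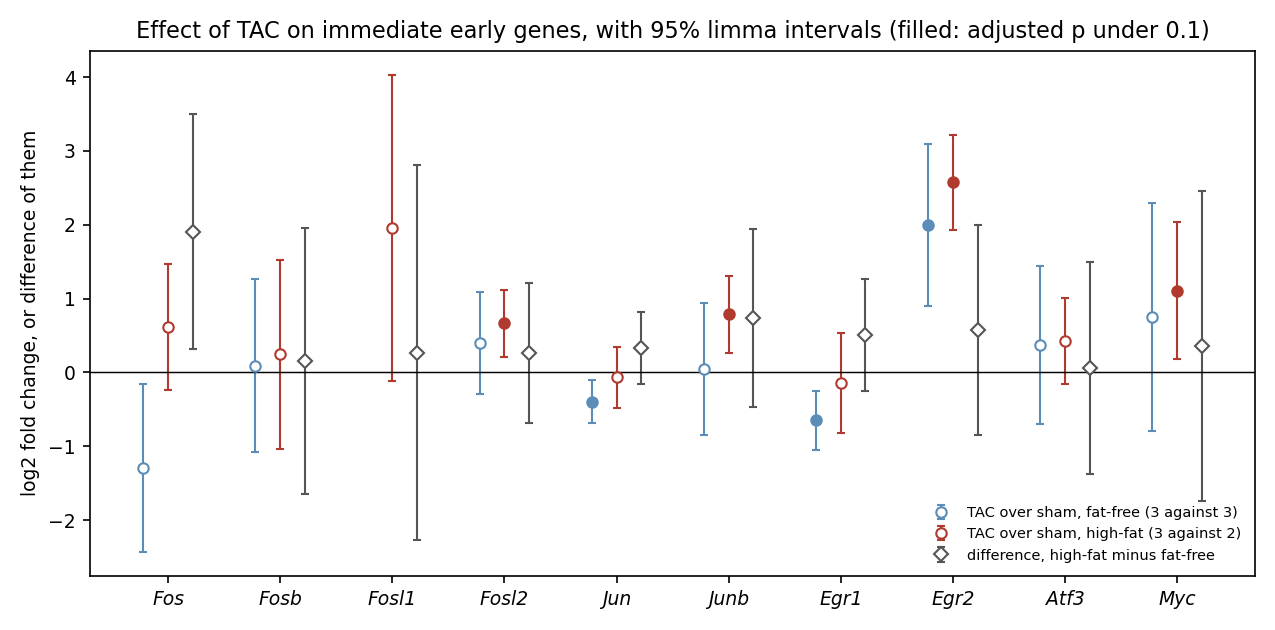
Log2 fold change of TAC over sham (vertical axis) on the fat-free diet (blue) and the high-fat diet (red), and the difference between them (grey diamonds), for each immediate early gene (horizontal axis). Bars are 95% limma intervals and filled symbols have an adjusted p under 0.1. Egr2 lies at 1.99 and 2.57 with filled symbols on both diets, and no diamond is filled.

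Counted over the members on the fat-free diet, 1 of the 9 tested rose and 2 fell, and 6 did not pass the test. Of all 13995 genes tested there, 14.2% rose and 10.0% fell. On the high-fat diet 4 of 10 rose, 0 fell and 6 did not pass, against 16.9% of 14274 genes that rose and 14.8% that fell. With libraries scaled by their totals alone, the calls over all genes were 2766 higher and 704 lower on the fat-free diet, in place of 1983 and 1400, and 6291 higher and 558 lower on the high-fat diet, in place of 2410 and 2109. Under that scaling Egr2 rose and Egr1 fell on the fat-free diet, and Egr2, Junb, Fosl2, Myc, Fosl1 and Atf3 rose on the high-fat diet. The members' median log2 fold change was 0.09 on the fat-free diet and 0.64 on the high-fat diet, beside -0.02 and -0.01 over all genes tested. TAC and sham libraries did not overlap for 3 of the 9 tested on the fat-free diet (Egr2 higher, Egr1 and Jun lower), where 37.3% of the genes tested did not overlap. Fosl1, which was not tested there, also did not overlap. On the high-fat diet they did not overlap for 5 of the 10 (Egr2, Junb, Fosl2, Myc and Fosl1, all higher), where 63.7% of genes did not, so that share is below the background.

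In the authors' deposited table, 3 members had an adjusted p under 0.1 on the fat-free diet, Egr2, Egr1 and Jun, beside 24.2% of genes with a value. On the high-fat diet 6 had one in the authors' deposited table (Egr2, Junb, Fosl2, Fosl1, Fos and Atf3), beside 37.5% of genes. The authors' deposited table gave Fos a shrunken log2 fold change of 0.72 on that diet with an adjusted p of 0.0659, and Atf3 0.53 with 0.0784.

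The counts of members moved with single libraries, and so did those of all genes, though not always in the same direction. The main high-fat fit called 4 members, with 2410 of all genes higher and 2109 lower. Without high-fat TAC replicate 1 it was 3 members, where 2788 of all genes rose and 2830 fell. With all libraries in 1 fit it was 2 members, where 2971 of all genes rose and 3059 fell. The high-fat count was 0 without high-fat sham replicate 2, where 0 of all genes passed. It was 1 (Egr2) without sham replicate 3, where 127 of all genes rose and 1 fell, and 1 (Egr2) without TAC replicate 3, where 147 rose and 9 fell. It was 6 without TAC replicate 2, where 3002 rose and 2943 fell. The fat-free count of 3 was 1 (Egr2) without sham replicate 1, where 1247 of all genes rose and 596 fell, and 1 (Egr2) without TAC replicate 1, where 1282 rose and 724 fell. It was 0 without the 3 libraries above 1000 Myl7 counts, where 0 of all genes passed. For the difference between diets, 0 of 10 members and 0 of 14729 genes passed limma, with 1 member (Fos) at an unadjusted p under 0.05. The intervals of the difference were wide. For Egr2 it was 0.58 (-0.84 to 2.00), for Jun 0.33 (-0.16 to 0.82), for Junb 0.74 (-0.46 to 1.94), for Egr1 0.50 (-0.25 to 1.26), for Fosl2 0.27 (-0.68 to 1.22) and for Myc 0.35 (-1.75 to 2.46).

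The level of the members in sham hearts was also set side by side between diets, as a description, since the tables were normalized separately and diet and table cannot be told apart. The sham mean was higher in the fat-free table for 10 of the 10 members, beside 32.1% of the 14729 genes tested for the difference. The sham libraries did not overlap for 6 of them (Fos, Fosb, Fosl2, Jun, Junb and Egr1), beside 8.12% of genes that were apart in that direction. Fos was at 514 ± 243 (SD, n = 3) in fat-free sham and 91.5 ± 20.5 (SD, n = 2) in high-fat sham. Junb was at 880 ± 380 and 274 ± 3.54, and Egr1 at 1118 ± 240 and 474 ± 1.41. The total of all genes ran the other way, with 31274316 to 33809757 normalized counts in fat-free sham and 38781127 to 39699027 in high-fat sham. Fat-free sham also held more atrial and fat tissue transcripts, with summed adipocyte markers of 867 to 1582 against 0 to 8. Their part in the levels was not tested.

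The members were also ranked by their group mean divided by transcript length, and the order in single libraries differed from that of the means. In fat-free sham the means per kilobase were 748 ± 75.8 for Jun, 478 ± 207 for Junb, 364 ± 78.2 for Egr1, 246 ± 116 for Fos, 198 ± 106 for Atf3, 162 ± 58.9 for Fosl2 and 128 ± 102 for Myc (SD, n = 3). Fosb (16.9 ± 5.77), Egr2 (12.3 ± 8.03) and Fosl1 (1.17 ± 1.02) came last. From Jun to Myc each gene overlapped the next in this order, Jun and Junb only narrowly. Myc did not overlap Fosb, and Egr2 did not overlap Fosl1. In high-fat TAC the order was Jun (546 ± 102), Junb (262 ± 64.7), Fosl2 (170 ± 37.5), Egr1 (145 ± 50.8), Atf3 (142 ± 31.6), Myc (110 ± 43.3), Fos (69.4 ± 25.9), Egr2 (36.8 ± 5.3), Fosb (9.27 ± 4.69) and Fosl1 (4.89 ± 3.23).

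The members differed in how far libraries of 1 group lay apart. The pooled SD within groups, on the log2 scale with 7 degrees of freedom, was 0.20 for Jun, 0.33 for Egr1, 0.42 for Fosl2, 0.53 for Junb, 0.60 for Egr2, 0.63 for Atf3, 0.70 for Fos, 0.77 for Fosb, 0.94 for Myc and 0.95 for Fosl1. In some libraries most members lay on the same side of their group mean. The like share over all genes was not computed, and deviations within a group cancel out, so these counts are a description. In fat-free sham replicate 2, 7 of the 10 members lay below their group mean, with Myc lower by 1.62 and Atf3 by 0.94 on the log2 scale. In fat-free TAC replicate 2, 8 of 10 lay above it, with Fos higher by 1.16. High-fat TAC replicate 1 also had 8 of 10 above. Fat-free TAC replicate 1 and high-fat TAC replicate 3 each had 8 of 10 below. Myl7 was lowest of the group in fat-free sham replicate 2, fat-free TAC replicate 2 and high-fat TAC replicate 3, and highest in fat-free TAC replicate 1 and high-fat TAC replicate 1. The part of atrial tissue in these deviations was not tested.

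**Figure D3:**
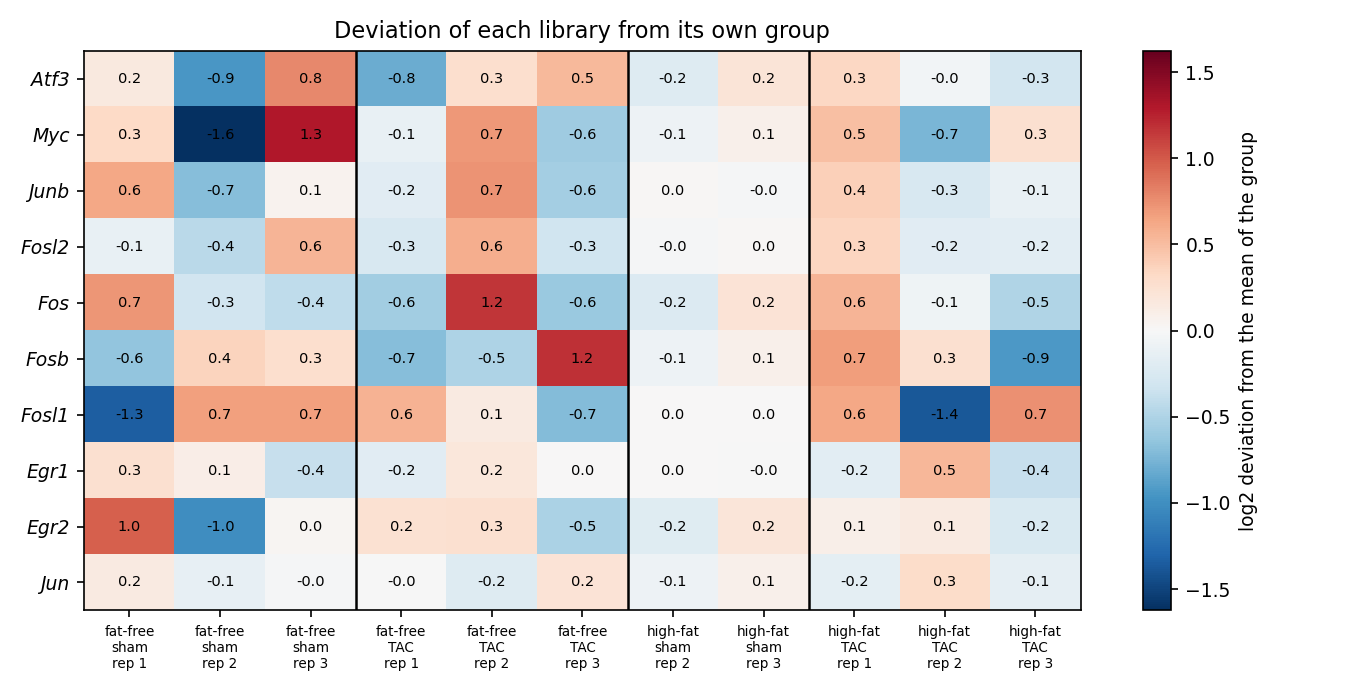
Log2 deviation of each library (columns) from the mean of its own group for the 10 immediate early genes, with red above and blue below the mean and black lines between groups. Fat-free sham replicate 2 is blue for 7 of 10 genes and fat-free TAC replicate 2 is red for 8 of 10, while the Jun cells stay pale throughout.

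The genes whose deviations were most like those of Myc, by Pearson's r over the 11 libraries among 10663 genes, were Rasd1 (0.992, Spearman's rho 0.991), Psip1 (0.978, rho 0.964), Nfkbiz (0.966, rho 0.945), Bex3 (0.951, rho 0.916) and Ppp1r15a (0.948, rho 0.927). Rasd1, a small GTPase gene, had 348, 98 and 646 counts in fat-free sham, 258, 420 and 230 in fat-free TAC, 130 and 140 in high-fat sham, and 313, 127 and 283 in high-fat TAC. It was thus low in the same fat-free sham and high-fat TAC libraries as Myc. For Fos the 5 were Snx12 (0.929, rho 0.818), Fam160b2 (0.925, rho 0.827), Kctd3 (0.921, rho 0.827), Mapk12 (0.919, rho 0.891) and Adora1 (0.916, rho 0.845). Snx12 spanned only 715 to 760 counts in fat-free sham and 720 to 827 in fat-free TAC, so likeness of shape did not mean likeness of size. These values describe the highest of many correlations over libraries that share their normalization, and carry no p-value.

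The other genes of the response were followed in lists chosen by function, with earlier results of these data known. Without high-fat sham replicate 2, 0 genes of any list and 0 of all genes passed on the high-fat diet, and 127 and 147 of all genes rose there without sham replicate 3 or TAC replicate 3. Among 43 other primary response genes, 41 were tested on each diet. On the fat-free diet 5 rose and 4 fell, with a median log2 fold change of 0.34, and on the high-fat diet 11 rose and 3 fell, with a median of 0.25. The fat-free shares, 12.2% higher and 9.76% lower, were near the 14.2% and 10.0% of all genes. The high-fat shares were 26.8% and 7.32%, beside 16.9% and 14.8% of all genes. Hbegf, which encodes a growth factor of the EGF family and also stands in the AP-1 target list, rose by 1.10 ± 0.13 (limma adjusted p = 0.00465) and 1.07 ± 0.16 (limma adjusted p = 0.0298). It went from 509, 465 and 428 to 946, 1174 and 894 counts on the fat-free diet and from 480 and 550 to 1283, 978 and 997 on the high-fat diet. Socs3, an inhibitor of cytokine signalling, rose by 1.69 ± 0.45 (limma adjusted p = 0.0412) on the fat-free diet and by 1.99 ± 0.34 (limma adjusted p = 0.0367) on the high-fat diet. In fat-free hearts Bhlhe40, a clock-linked repressor, rose by 0.53. Ctgf, a matricellular protein gene (2.70 ± 0.52), Plk2, a polo-like kinase gene (0.53 ± 0.10), and Ptgs2, which encodes cyclooxygenase (3.23 ± 0.66), rose on the high-fat diet.

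Dusp1 and Zfp36, which limit signalling and mRNA lifetime, fell on the fat-free diet. Dusp1, a phosphatase that switches off MAP kinases, had 3764, 2528 and 4446 counts in fat-free sham and 1800, 2135 and 2565 in fat-free TAC. It fell by 0.70 (SE 0.21, limma adjusted p = 0.0620), and TAC replicate 3 lay just above the lowest sham library. It was called in 2 of 6 settings that left out 1 library, lost without sham replicates 1 or 3 or TAC replicates 1 or 2, with an adjusted p of up to 0.166. Without the 3 libraries above 1000 Myl7 counts, the log2 fold change of Dusp1, fat-free, was -0.11. It did not pass on the high-fat diet, with 1760 and 1959 in sham and 1852, 2016 and 1983 in TAC. Zfp36 (tristetraprolin), which speeds the decay of AU-rich mRNAs, fell on both diets, by 0.67 (SE 0.22, limma adjusted p = 0.0732) and 0.43 (SE 0.15, limma adjusted p = 0.0905). Its fat-free call was lost without the same 4 libraries (adjusted p up to 0.203), and its high-fat call held in 2 of 5 such settings, lost without sham replicates 2 or 3 or TAC replicate 3 (adjusted p up to 0.410). The log2 fold change of Zfp36, fat-free, was -0.06 without the libraries above 1000 Myl7 counts, and the log2 fold change of Zfp36, high-fat, was -0.02 with libraries scaled by their totals alone. Klf2, a flow-responsive endothelial factor, fell by 0.87 (SE 0.15, limma adjusted p = 0.0131) on the fat-free diet. Ier3 rose on the high-fat diet by 0.47 ± 0.11 (limma adjusted p = 0.0530), from 620 and 635 to 956, 854 and 812, and did not pass on the fat-free diet, with 423 to 899 counts in sham and 810 to 1207 in TAC. Nr4a1, an orphan nuclear receptor, did not pass on either diet, with 1651, 421 and 2221 counts in fat-free sham and 915, 2201 and 2156 in fat-free TAC. Its low sham library was replicate 2, as for Myc. It had 563 and 450 in high-fat sham and 530, 532 and 412 in high-fat TAC. Ier2 did not pass either, with 511 to 616 counts over the fat-free libraries and 372 to 423 over the high-fat ones.

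The kinases and factors that act before the immediate early genes were tested as a list of 28. On the fat-free diet 5 rose and 3 fell, with a median of 0.04, and on the high-fat diet 6 rose and 1 fell, with a median of -0.10. The fat-free shares were 17.9% higher and 10.7% lower, beside 14.2% and 10.0% of all genes. The high-fat shares were 21.4% and 3.57%, beside 16.9% and 14.8% of all genes. Mapk14, the p38 alpha kinase gene, fell on both diets, by 0.51 (SE 0.09, limma adjusted p = 0.0149) and 0.78 (SE 0.15, limma adjusted p = 0.0426). Its counts were 2411, 2498 and 2180 in fat-free sham against 1600, 1798 and 1589 in fat-free TAC, and 3074 and 3028 in high-fat sham against 1512, 2111 and 1747 in high-fat TAC. Mapk7, the ERK5 gene, rose by 0.56 ± 0.16 (limma adjusted p = 0.0484) and 0.85 ± 0.17 (limma adjusted p = 0.0420). The ribosomal S6 kinase gene Rps6ka3, which lies below ERK, rose by 0.57 ± 0.15 (limma adjusted p = 0.0428) and 0.68 ± 0.14 (limma adjusted p = 0.0474). With 1 fat-free library left out, Mapk7 was called in 2 of 6 settings and Rps6ka3 in 3 of 6. The related gene Rps6ka1 rose by 0.86 ± 0.17 (limma adjusted p = 0.0167) and 0.64 ± 0.17 (limma adjusted p = 0.0625). Mapk3, the ERK1 gene, rose on the high-fat diet by 0.40 ± 0.09 (limma adjusted p = 0.0505). Srf, the factor that binds CArG boxes, did not pass on either diet, with 2854 to 3502 counts in fat-free sham, 2951 to 3490 in fat-free TAC, 2552 to 2973 in high-fat sham and 2450 to 2683 in high-fat TAC.

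Of 22 other leucine zipper genes, 2 rose and 1 fell on the fat-free diet (median 0.22), and 2 rose and 2 fell on the high-fat diet (median 0.13). The fat-free shares were 9.09% higher and 4.55% lower, beside 14.2% and 10.0% of all genes. The high-fat shares were 9.09% and 9.09%, beside 16.9% and 14.8% of all genes. Jdp2, a repressor that pairs with Jun, rose on the fat-free diet by 0.65 ± 0.13 (limma adjusted p = 0.0180), with Maf at 0.50 ± 0.17 (limma adjusted p = 0.0893) and Atf2 at -0.28 ± 0.10 (limma adjusted p = 0.0893). With 1 library left out, Maf was called in 1 of 6 settings, only without fat-free TAC replicate 2 (adjusted p up to 0.238), and Atf2 in 0 of 6 (adjusted p 0.138 to 0.194). In high-fat hearts Cebpa, a factor of fat and myeloid cells, rose by 0.94 ± 0.33 (limma adjusted p = 0.0961). Bach1, at -0.34 ± 0.12 (limma adjusted p = 0.0948), and Cebpb, at -0.32 ± 0.11 (limma adjusted p = 0.0964), fell there, and both estimates turned positive (0.08 and 0.10) when libraries were scaled by their totals alone, which moved the median of all genes to 0.40. All 5 macrophage markers rose on both diets, with a summed level of 4057 to 4529 in fat-free sham, 7742 to 12276 in fat-free TAC, 3205 to 3958 in high-fat sham and 5967 to 9522 in high-fat TAC, and their part in the changes of this list was not tested.

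Most of the AP-1 target genes tested rose on both diets. This list was drawn up with earlier results of these data known, so its shares are a description and not a test. On the fat-free diet 13 of 19 tested rose and 1 fell, with a median log2 fold change of 1.10. For high-fat mice 12 of 20 rose and 2 fell, with a median of 1.23. Of all genes tested, 14.2% rose and 10.0% fell on the fat-free diet, and 16.9% rose and 14.8% fell on the high-fat diet. Sprr1a, a stress-induced cornified envelope protein, had 2, 0 and 6 counts in fat-free sham and 1468, 1358 and 90 in fat-free TAC. It had 4 and 6 in high-fat sham and 3305, 463 and 574 in high-fat TAC, and it entered the test on each diet only through its TAC libraries. Timp1, an inhibitor of matrix metalloproteinases, went from 106, 25 and 83 to 1102, 1814 and 283 on the fat-free diet (3.75 ± 0.73, limma adjusted p = 0.0167) and from 15 and 48 to 2349, 455 and 1171 on the high-fat diet (5.27 ± 0.78, limma adjusted p = 0.0303). Ccnd1, the cyclin D1 gene, rose by 1.28 ± 0.16 (limma adjusted p = 0.00499) and Hmox1, the heme oxygenase gene, by 1.60 ± 0.24 (limma adjusted p = 0.00801) on the fat-free diet. Mmp14, a membrane-bound matrix metalloproteinase, rose by 2.50 ± 0.33 on the high-fat diet (limma adjusted p = 0.0255).

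These genes have other regulators besides AP-1 and several are made by fibroblasts and macrophages. The fibroblast markers summed to 20082 to 35150 in fat-free sham and 46235 to 153893 in fat-free TAC. They summed to 23925 to 28702 in high-fat sham and 83608 to 281229 in high-fat TAC. Only 3 of 6 were called higher on each diet, so the sums do not stand for every marker. In fat-free hearts the collagen gene Col3a1 had 3739, 3055 and 4618 counts in sham and 57141, 33384 and 15539 in TAC. Dcn of the same list had 25673, 13927 and 20925 in sham and 20907, 13711 and 14728 in TAC. The part of these cells in the rise of the AP-1 targets was not tested. Without the 3 fat-free libraries above 1000 Myl7 counts 0 of the AP-1 targets passed on the fat-free diet, where 0 of all genes passed. Without high-fat sham replicate 2, 0 passed on the high-fat diet.

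**Figure D4:**
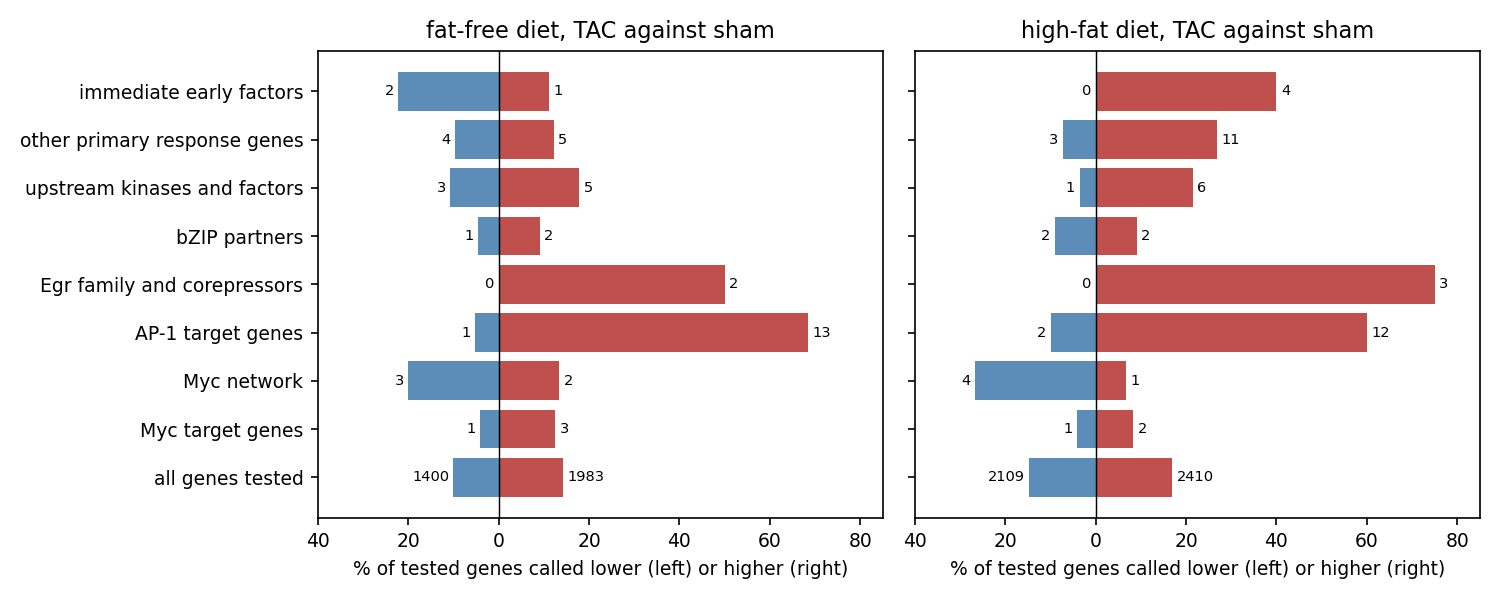
Share of tested genes called higher (red, to the right) or lower (blue, to the left) after TAC in each list and over all genes tested, in percent (horizontal axis), for the fat-free diet (left panel) and the high-fat diet (right panel). Numbers beside the bars are gene counts. The AP-1 target bar reaches 68.4% and 60.0% higher, beside 14.2% and 16.9% of all genes. The lists were drawn up with earlier results of these data known.

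Max and Mxi1, Myc's partner and an opponent of Myc, were called lower on both diets, less firmly on the high-fat diet. Of 15 genes tested on each diet, 2 rose and 3 fell on the fat-free diet (median -0.04), and 1 rose and 4 fell on the high-fat diet (median -0.10). The fat-free shares were 13.3% higher and 20% lower, beside 14.2% and 10.0% of all genes. The high-fat shares were 6.67% and 26.7%, beside 16.9% and 14.8% of all genes. Max, the obligate partner of Myc, had 1310, 1285 and 1233 counts in fat-free sham and 892, 886 and 1021 in fat-free TAC. It had 1137 and 1130 in high-fat sham and 833, 881 and 758 in high-fat TAC. It fell on both diets, by 0.45 (SE 0.09, limma adjusted p = 0.0200) and 0.46 (SE 0.11, limma adjusted p = 0.0514). Mxi1, a Max partner that opposes Myc, fell by 0.46 (SE 0.10, limma adjusted p = 0.0244) and 0.67 (SE 0.14, limma adjusted p = 0.0432). With 1 library left out, the fat-free calls of Max and Mxi1 held in 6 of 6 settings and the high-fat calls in 2 of 5. Leaving out either high-fat sham library leaves 1. Scaling by library totals alone moved the high-fat median of all genes to 0.40, close to the size of the fall of Max there. Mxd3, a relative of Mxi1 known to be expressed in dividing cells, rose from 4, 0 and 6 counts to 69, 131 and 111 on the fat-free diet and from 9 and 15 to 107, 120 and 202 on the high-fat diet. All its fat-free sham values were under the minimum of 10, so it entered the fat-free test only through its TAC libraries. On the high-fat diet, where 2 libraries had to reach 10, the sham value of 9 did not. Its entry there thus rested on TAC libraries as well. Cycling cell markers rose with it, with a summed level of 145 to 543 in fat-free sham, 1828 to 3160 in fat-free TAC, 318 to 537 in high-fat sham and 3707 to 6664 in high-fat TAC, and their part was not tested. Zbtb17 (Miz-1), a Myc-binding factor, fell on the high-fat diet by 0.53 (SE 0.11, limma adjusted p = 0.0473).

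Of 24 Myc target genes, 3 rose and 1 fell on the fat-free diet (median 0.07), and 2 rose and 1 fell on the high-fat diet (median -0.05). Odc1, the polyamine synthesis enzyme that is a textbook Myc target, rose on the fat-free diet by 0.49 ± 0.17 (limma adjusted p = 0.0902), from 1502, 1645 and 1446 to 1959, 2874 and 1773 counts. It was called in 1 of 6 settings that left out 1 library, only without TAC replicate 3, with adjusted p from 0.0387 to 0.198, and its log2 fold change was 0.29 without TAC replicate 2. High-fat hearts had 1591 and 1606 in sham and 2257, 1687 and 2126 in TAC and did not pass. Cdk4, a cell cycle kinase, rose on both diets, by 0.34 ± 0.09 (limma adjusted p = 0.0420) and 0.32 ± 0.11 (limma adjusted p = 0.0906). Bop1, a ribosome assembly factor, rose by 0.36 ± 0.09 (limma adjusted p = 0.0398) and the mitochondrial chaperone gene Hspd1 fell by 0.40 (SE 0.11, limma adjusted p = 0.0481) on the fat-free diet. Over the 6 left-out libraries of that diet the calls of Cdk4, Bop1 and Hspd1 held in 3, 4 and 3. Ccnd2, the cyclin D2 gene, rose by 0.47 ± 0.09 (limma adjusted p = 0.0399) on the high-fat diet. The fat-free shares were 12.5% higher, near the 14.2% of all genes, and 4.17% lower, beside 10.0%. The high-fat shares were 8.33% higher and 4.17% lower, beside 16.9% and 14.8% of all genes.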

How the data were processed

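RNA of heart tissue was sequenced with a stranded mRNA kit, per the labels. Per the submitters' processing notes, STAR, Subread, featureCounts and DESeq2 were used on build mm10, without versions. The per-library values are normalized counts that the authors rounded to whole numbers within each diet, so they were handled here as a score. Some small whole numbers never occurred in 4 libraries, which raw counts would not show. The deposited fold changes are shrunken log2 values, and the deposited adjusted p-value is from DESeq2, per the labels. Columns were found for 11 of the 12 labelled libraries, through the names in the headers, with 0 columns unmatched. Library totals were 25906622 to 39699027.

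For the fat-free diet, a gene was tested if 3 libraries reached 10, and for the other comparisons if 2 did. The test was run on log2(value + 1) with limma 3.58.1 (run in R 4.3.3; tables were read by data.table version 1.17.8), with a mean-variance trend, two-sided, Benjamini-Hochberg adjusted over all genes, at 0.1. Fold changes on this scale understate those of low genes. A count model had been planned for raw counts and was not used. Levels were not tested between diets. The test was also run on simulated data with the same setting of spread for all genes. That run did not copy the uneven spread of these libraries, and no result rests on it. Members, lists and tests were chosen with earlier results of these data known. Genes named are the 10 members, 13 relatives set by name, up to 4 genes of smallest adjusted p per list and diet, and the 5 genes most like Fos and Myc. A listed gene that this rule would name is not reported here. The shares of Fos family transcripts and of Egr2 to Egr1, and the sham levels, were added after values were seen. Alternatives were another pseudocount (0.5 or 5), no filter, scaling by library totals, value-wise weights, a fit over all libraries, a replicate block, Myl7 as a covariate or a limit of 1000 on it, and leaving out each library. Promoters are RefSeq's, and figures were drawn with matplotlib 3.10.9, numpy 2.4.6 and pandas 2.3.3.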

Additional observations from a re-analysis of the deposited data

How the results depend on the processing

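With 2 or 3 libraries a group, few calls held in every setting, and where a value changed the cause was not tested. The fat-free count of 3 members ran from 1 to 3 over left-out libraries and was 0 without the libraries above 1000 Myl7 counts, where 1 sham library was left. The high-fat count of 4 ran from 0 to 6 over left-out libraries and was 2 without a filter and 2 with all libraries in 1 fit. The difference count was 0 of 10 in all settings; over all genes 1 passed without high-fat TAC replicate 1. Whether the replicate numbers pair libraries could not be told from deviations centred within groups of 2 or 3. Same-number correlations were 0.443, 0.143 and -0.158 fat-free and 0.149 and -0.122 high-fat. Different-number correlations ran from -0.437 to 0.337 fat-free and from -0.195 to 0.195 high-fat. With a replicate block the counts were 3, 4 and 0. On the high-fat diet the bZIP count then went from 4 to 8 and that of Myc targets from 3 to 7. Scaling by library totals alone moved the median of all genes to 0.13 fat-free, 0.40 high-fat and 0.25 for the difference and split the calls 2766 higher and 704 lower (fat-free) and 6291 and 558 (high-fat), against 1983 and 1400 and 2410 and 2109.

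Of 484 recomputed member fold changes, 389 kept direction and side of the threshold and 52 changed sign, none of them called. Fat-free, left-out libraries gave -0.50 to 0.44 for Fosb, -0.32 to 0.36 for Junb, -0.10 to 0.77 for Atf3 and -0.062 to 1.40 for Myc, and the Myl7 covariate gave Fosb -0.39. High-fat, they gave -0.093 to 0.71 for Fosb, -0.21 to 0.014 for Jun and -0.41 to 0.042 for Egr1. Fosb was -0.093 with the block or without the Myl7-rich library and -0.17 with the covariate. Jun was 0.012, 0.012 and 0.015 in these 3, 0.35 by totals and 0.11 in the authors' deposited table, and Egr1 0.27 by totals and 0.11 in the authors' deposited table. Bach1, Cebpb and Mrto4 were 0.078, 0.10 and 0.041 by totals. For the difference, left-out libraries gave -0.19 to 0.75 for Fosb, -0.11 to 0.95 for Fosl1, -0.0085 to 0.56 for Fosl2, -0.34 to 0.53 for Atf3 and -0.29 to 1.17 for Myc. The block gave -0.19 for Fosb, -0.050 for Fosl1 and -0.11 for Atf3. The covariate gave -0.10 for Fosb, -0.083 for Fosl1, -0.0034 for Fosl2, -0.26 for Atf3 and -0.48 for Myc. Without the Myl7-rich libraries Fosb was -0.17, Fosl2 -0.48, Junb -0.23, Egr2 -0.35, Atf3 -1.45 and Myc -1.58. Listed genes lost the threshold in 206 of 819 recomputations.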
